A study of Mus musculus with 2 samples.

Results

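Unannotated spliced isoforms that recurred in both long-read libraries of neonatal mouse gastrocnemius are described here. The members were chosen by their counts and their class labels: a transcript model of class NIC (known splice sites joined in an order that GENCODE does not list) or NNC (with a splice site that it does not list), with at least 2 exons and an annotated mouse gene, was matched between the libraries by chromosome, strand and its exact series of introns, called the intron chain below, and kept with at least 5 counts in each library. The rule kept 1526 chains from 1014 genes, out of 77193 NIC and NNC chains seen in either library and 99284 spliced chains of annotated genes in all. The tissue was gastrocnemius, a fast hindlimb muscle, from male B6CASTF1/J animals at 4 days of age, and each library was made from 2 µg of total RNA. There was 1 group of 2 replicates and no treatment, so nothing was compared between conditions. The labels give separate biosamples with a shared donor entry and do not settle whether the replicates are 2 animals, so spreads and p-values may be technical.

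A gene's exons can be joined in several ways, and a long read covers a transcript from near its start to its end, so the whole order of exons is read on 1 molecule. Muscle is known for many alternative exons in sarcomere and calcium-handling genes, and many of these switch after birth. Whether an isoform counts as unannotated depends on the catalogue, here GENCODE M21 on mm10 (GRCm38).

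Replicate 1 held 1066347 counts and replicate 2 held 1100253, of which 998659 and 1026257 fell on annotated mouse genes. These last totals are the denominators of CPM (counts scaled to the library total). Spliced models of class Known, NIC or NNC held 848645 and 870774 counts, and shares below are over these. All 7 skeletal muscle markers were detected in both libraries, with 94225 and 112139 counts in sum. The 6 epidermal markers summed to 4 counts in replicate 1 and 1000 in replicate 2, the 5 Schwann cell markers to 1447 and 3570, and the 6 fibroblast markers to 36893 and 25668. A member was held by 6 of 7 skeletal muscle, 3 of 6 fibroblast, 2 of 5 endothelial and 1 of 5 Schwann cell marker genes. Of all genes with at least 20 spliced counts in each library, 17.3% held one. None of the epidermal, adipocyte, leukocyte or erythroid marker genes did. For the epidermal markers the rule fixed this, since 4 counts in replicate 1 cannot reach its minimum.

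The members took 87427 counts in replicate 1 and 65042 in replicate 2. This was 10.3% of spliced counts (95% exact binomial interval 10.2 to 10.4%) and 7.47% (7.41 to 7.52%), a mean of 8.89% ± 2.00 (SD, n = 2). Intervals cover counting error only. A single gene, Atp2a1, the calcium pump of the fast-fibre sarcoplasmic reticulum, held 48.5% and 37.2% of the members' counts with 30 chains. Without Atp2a1 the share was 5.30% and 4.69%, a mean of 4.997% ± 0.43 (SD, n = 2).

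Most unannotated chains had a single count. Of the 77193 chains, 59205 had 1 count in sum, so they could not be in both libraries. In all, 11859 (15.4%) were seen in both. The members were 1.98% of the chains and held 59.1% and 52.8% of all counts on NIC and NNC chains. For comparison, 15062 of 22091 Known chains (68.2%) were seen in both libraries and 8815 passed the same minimum. Counts per chain were not matched between Known and unannotated chains, so these shares do not compare recurrence at like counts. Just inside the minimum, 290 members had 5 counts in their lower library, and just outside it, 435 chains had 4. With at least 5 counts in 1 library and none in the other there were 144 chains in replicate 1 and 108 in replicate 2.

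**Figure D1:**
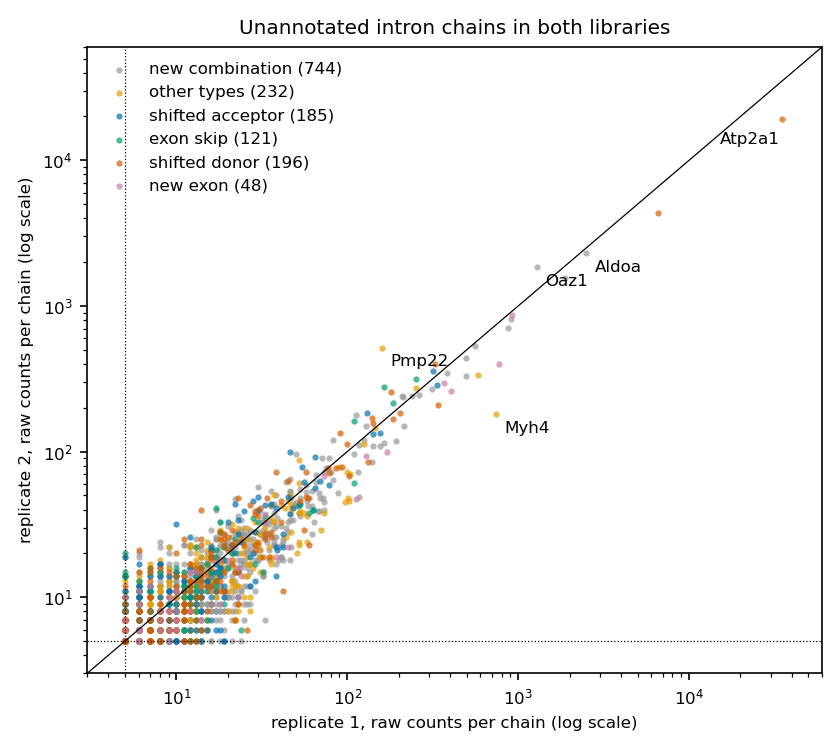
Raw counts of each of the 1526 chains in replicate 1 (x axis) and replicate 2 (y axis), both on log scales, coloured by how the chain differs from the Known models of its gene. Dotted lines mark the minimum of 5 counts and the solid line marks equal counts. Atp2a1 stands highest at 35215 and 19264 counts, Myh4 lies below the line and Pmp22 above it.

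The minimum of 5 counts in each library removed chains that were low in 1 of them, so the agreement of the members' counts is a description only. Between the libraries, 1323 members (86.7%) lay within 2-fold on the CPM scale, against 90.6% of the 8815 Known chains. The SD of the log2 CPM difference was 0.64 over members and 0.60 over Known chains. Pearson's r of log2 CPM was 0.88 across the 1526 members, which share the libraries and the minimum and are not replicates. The ends of a model were not part of the rule. Both libraries placed the 5′ end within 50 bases of each other for 91.5% of members and the 3′ end for 85.4%, and for 88.7% and 84.8% of the 10333 chains that were in both libraries but under the minimum. The median distance was 0 bases at both ends in both sets. Different chains of a gene could share both ends, as the named Cdkn1c members did. These are ends of models and not of reads, so they do not measure how well the reads of the libraries agree.

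The sequences below show members that lack a short annotated exon and come from GENCODE M21 transcripts on GRCm38. Capitals mark an annotated exon of at most 30 bases in the line named annotated, and the bases that the recurrent chain has in its place in the line named observed, with 12 bases of the neighbouring exons on each side. The observed bases are those of the reference at the chain's coordinates, not those of the reads.
Hnrnpk annotated: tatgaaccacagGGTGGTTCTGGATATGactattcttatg
Hnrnpk observed: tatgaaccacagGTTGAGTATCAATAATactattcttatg
Capn2 annotated: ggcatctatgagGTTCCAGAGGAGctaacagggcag
Capn2 observed: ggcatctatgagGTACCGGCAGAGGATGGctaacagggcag
Idh3g annotated: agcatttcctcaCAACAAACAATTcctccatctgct
Idh3g observed: agcatttcctcaGTAAcctccatctgct
Mrpl33 annotated: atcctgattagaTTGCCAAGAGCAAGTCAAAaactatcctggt
Mrpl33 observed: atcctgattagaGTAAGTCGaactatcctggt
Tnni1 annotated: catgccggaagtTGAGaggaaatccaag
Tnni1 observed: catgccggaagtaggaaatccaag
Sept7 annotated: gcggcaccatggCTcaaccgaagaac
Sept7 observed: gcggcaccatggcaaccgaagaac
Atp2a1 annotated: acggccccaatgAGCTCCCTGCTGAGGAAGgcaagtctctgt
Hacd1 annotated: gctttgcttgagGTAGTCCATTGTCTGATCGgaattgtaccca

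These genes show a recurring form of difference: an annotated short exon was absent from the chain, and the exon before it either kept its end (Tnni1, Sept7) or ran on past its annotated donor site. In Hnrnpk the exon of 16 bases was absent and the upstream exon was 16 bases longer, and the 16 annotated and 16 added bases were 8 single-base edits apart. Of 8 short exons whose added bases could be read from annotated transcripts, the added bases began with GT in 7, the letters that normally open an intron. Where the exon ran on past its annotated donor, the added bases are the first of the annotated intron, so GT there follows from their position. A junction over a Known exon of at most 30 bases was found in 110 members from 55 genes, and these held 52.8% and 43.1% of the members' counts. The 81 of them outside Atp2a1 had 3782 and 3879 counts. This was 4.33% and 5.96% of the counts of all members, with Atp2a1 kept in the denominator. Members outside Atp2a1 held 44999 and 40853 counts in all. The 110 members concerned 58 short exons, with a median length of 18 bases. In 42 of these 58 no spliced model in either library, including partial models (class ISM), held the exact exon, and in 6 the exact exon was in more than 50% of the covering counts of both libraries. The chains without the short exon had 142 and 157 counts in Idh3g, 91 and 135 in Mrpl33, 185 and 216 in Sept7, 179 and 256 in Hacd1, 146 and 146 in Pitpna and 77 and 77 in Chmp1a. In Idh3g, a subunit of isocitrate dehydrogenase, this was 81.6% of the gene in replicate 1. Whether an aligner's placement of short exons moved with this was not tested, since the reads were not used here.

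**Figure D2:**
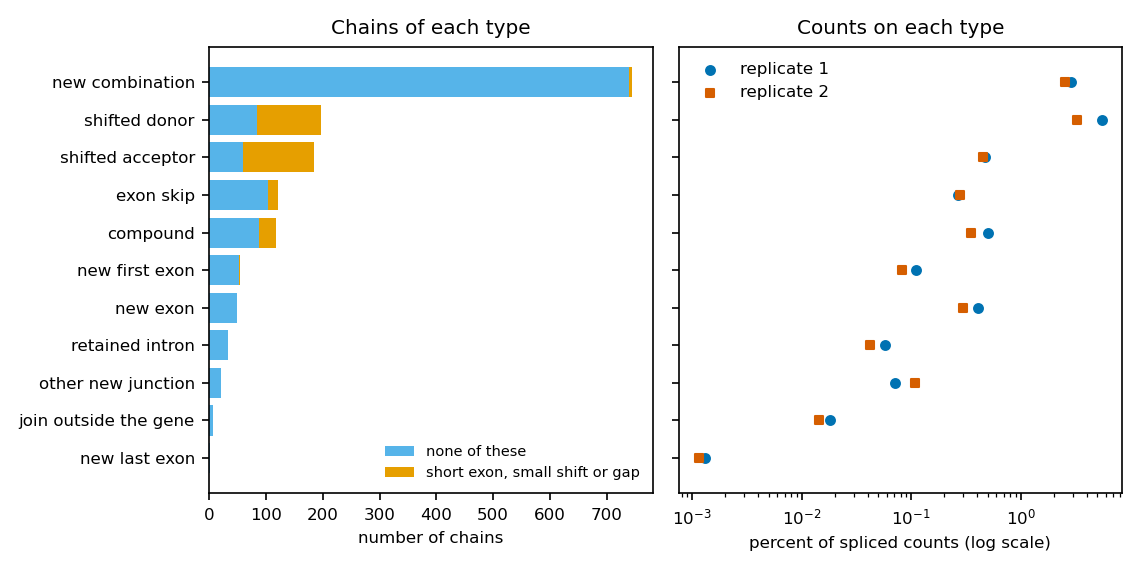
Left, the number of chains (x axis) of each type (y axis), split by whether the chain has a junction over a short exon, changed sites all within 10 bases of a Known site or a gap in a Known model. Right, the percent of spliced counts on each type in each library, on a log scale. New combinations were the most frequent type with 744 chains, and held 24441 and 22264 counts in replicates 1 and 2. Shifted donors held the most counts, 46785 and 28597, most of them on 2 Atp2a1 chains. These had 35215 and 19264 counts and 6548 and 4377.

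Each chain was typed by its coordinates against the Known models of its gene. The 744 new combinations used junctions that are each annotated, but not together. Shifted donor sites typed 196 chains, shifted acceptor sites 185, skipped exons 121, several kinds at once 118, new first exons 54, new internal exons 48, retained introns 32 and other junctions between Known sites 20, such as Map7d1 with 104 and 70 counts and Eno3, muscle enolase, with 52 and 87. Another 7 joined the gene to a site of another gene and 1 had a new last exon. The class labels were less clear: 146 members were NIC in 1 library and NNC in the other, and 170 and 182 of the members labelled NIC in replicates 1 and 2 held a site outside the annotation.

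Coordinates set apart 2 broader groups. In 290 members a junction passed over a short exon, the changed sites all lay within 10 bases of a Known site, or a gap of under 30 bases in a Known model set the chain apart. These, called small differences, held 59.0% and 52.2% of the members' counts. A member with a junction over a short exon could also differ by more, as Uckl1 did with a shift of 265 bases. Outside Atp2a1 the same group had 261 chains and 9145 and 9762 counts. Of the new combinations, 608 of 744 (81.7%) were built of neighbouring junction pairs that each occur in some Known model, while 136 held a pair that no Known model has. The remaining 630 members, with neither a small difference nor such a tiled combination, held 18910 and 16079 counts.

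Atp2a1 led the members. The top chain had 35215 and 19264 counts in replicates 1 and 2, making up 81.3% (80.9 to 81.7%) and 78.6% (78.1 to 79.1%) of the gene's spliced counts and 27017 CPM ± 11661 (SD, n = 2). The second chain had 6548 and 4377 counts, or 15.1% and 17.9%. In both, a donor was shifted by 26 bases (chromosome 7, 126462778, minus strand) and the annotated coding exon of 18 bases at 126462500 to 126462517 was absent, a net gain of 8 bases. The exact 18-base exon had 0 counts in both libraries, against 45193 and 25705 counts on junctions over it. The 26 added bases are in no annotated transcript used here and were not read.

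The pair of Atp2a1 chains differed from each other by the annotated 42-base exon at 126446545 to 126446586 near the end of the coding part. As background, the fast-muscle pump has an adult form with this penultimate exon and a neonatal form without it. Over all spliced Atp2a1 chains the exon was present in 6691 covering counts of replicate 1 and 4525 of replicate 2, or 15.5% and 18.5%, a mean of 17.0% ± 2.13 (SD, n = 2). Chains without it held 36483 and 19924 counts.

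The new internal exons with the most counts were in Mybpc1 and Bin1. Bin1, whose protein shapes the transverse tubules, carried an unannotated 45-base exon on chromosome 18 in 5 members with 1332 and 1205 counts in sum, 90.9% and 90.1% of the gene's spliced counts. Its highest chain had 918 and 863 counts, a share of 62.6% and 64.5% (mean 63.6% ± 1.36, SD, n = 2), and the next had 366 and 297. Mybpc1, slow myosin-binding protein C of the thick filament, carried a pair of new exons of 36 and 39 bases (chromosome 10, 88575129 to 88575164 and 88575842 to 88575880, minus strand) in 6 members with 1631 and 924 counts, 44.3% and 40.8% of the gene. Its highest chain had 772 and 400 counts, so the level in CPM differed between the libraries (581 ± 271, SD, n = 2) more than the share did (20.99% and 17.7%). The next had 402 and 262 counts, 10.9% and 11.6% of the gene, and the others named by the rule had 170 and 99, 129 and 94, and 113 and 47.

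Other new exons were lower in counts. Phkb, a regulatory subunit of phosphorylase kinase, had a 91-base exon in 73 and 68 counts, 76.0% and 72.3% of the gene. Paxillin (Pxn) had new exons of 267 and 393 bases, with 60 and 31 counts on the first. Usp25, a deubiquitinase, had a pair of 114 and 96 bases in 38 and 19 counts, and Lrrfip2 a pair of 54 and 57 bases in 31 and 19. The members held 52 distinct new internal exons from 44 genes, of 21 to 393 bases (median 86). Of these, 27 (51.9%) had a length that is a multiple of 3, which keeps the frame only where an exon lies in the coding part. The share was 39.1% over the 60421 internal exons of Known chains under the same minimum. The new exons were each counted once and the sets were not matched, so this is not a like comparison. Of the 48 members typed as new exon, 13 could be read to a stop, all with the coding part of a Known model. Another 32 held bases that could not be read.

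Skipped exons were counted by event. The size of a skip is the fewest annotated exon bases on a Known path across its junction, so models with longer paths can differ by more. Counting each event over 30 bases once, 104 skips from 98 genes had a median of 109 bases, and 58 of them (55.8%) were a multiple of 3. The highest was in Idh3b, a subunit of mitochondrial isocitrate dehydrogenase. Its junction at chromosome 2, 130279438 to 130280262 had a size of 171 bases in 252 and 315 counts, 86.0% and 85.8% of the gene. The coding part of this member met another stop and was 4 codons shorter than in the closest annotated form. Dctn1, of the dynein adaptor dynactin, had a 39-base skip in 125 and 68 counts. Its junction passes over an 18-base exon, so its 2 members are also among those with a short exon above. Cttn had a 111-base skip in 52 and 43 counts, and Trim55, a sarcomere-associated ubiquitin ligase, a 288-base skip in 33 and 36. In Mpc1, the mitochondrial pyruvate carrier, the shortest annotated path across the junction holds 4 bases, and the member took 98.2% and 97.6% of the gene with 110 and 161 counts.

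Pdlim7, a Z-disc protein, had an acceptor shifted by 25 bases in 131 and 185 counts. There were 232 distinct shifted donors, of which 86 lay within 10 bases of a Known donor, and 232 distinct shifted acceptors, of which 115 did. The most frequent donor shift made the exon 4 bases longer (48 sites). The most frequent acceptor shift left out 3 bases of the exon (41 sites), and 21 sites added 3. Where bases could be read from annotated transcripts, 106 of 119 shifted donors (89.1%, exact binomial 95% interval 82.0 to 94.1%) had GT and 170 of 174 shifted acceptors (97.7%, 94.2 to 99.4%) had AG, the usual letters at intron ends. Only sites inside annotated exons could be read, so this does not describe all sites. No such share is given here for Known introns or for chains under the minimum. Whether an aligner's choice of sites moved with these shares was not tested.

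**Figure D3:**
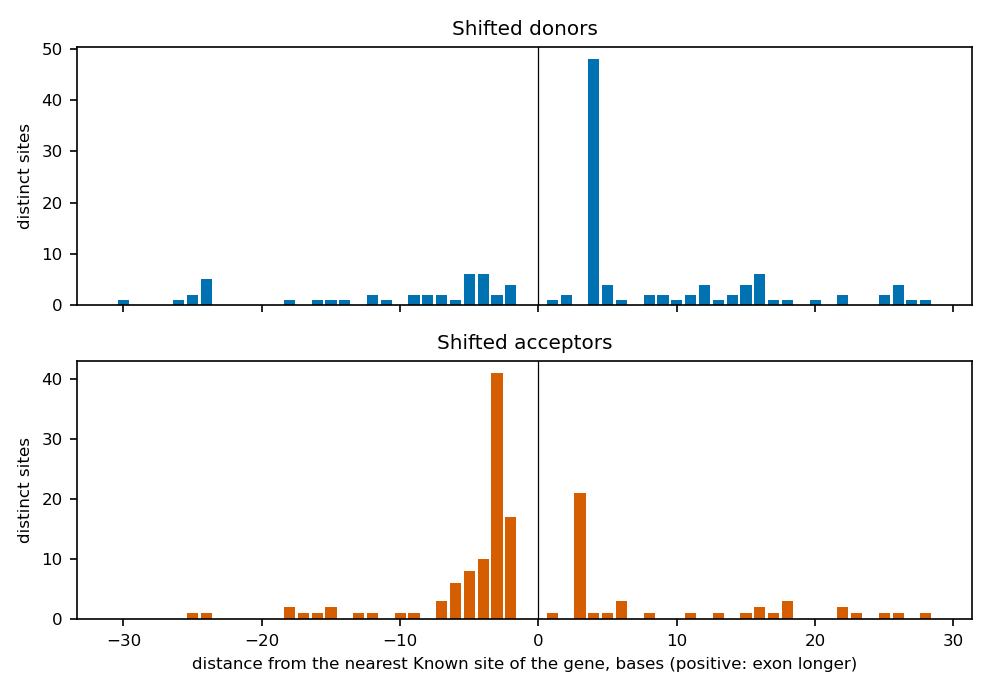
Distinct shifted donor sites (top) and acceptor sites (bottom) by their distance in bases from the nearest Known site of the gene, positive where the exon became longer, shown to 30 bases. The donor peak is at 4 bases with 48 sites and the acceptor peaks are at -3 with 41 and at 3 with 21.

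The next sequences show the Idh3b junction over its skipped exon and 4 junctions at shifted acceptors, with the last 15 bases of the upstream exon in lower case and the first 15 of the downstream exon in capitals.
Idh3b skipped exon: atcaaagctggcaagGTTCGAACCTCAGAT
Cdkn1c acceptor: tcaccaatcagccagAACAGCGATGGAACG
Qk acceptor: ccaacattaaatcacCAACTGCCCAGGCTG
Sdhb acceptor: agagtcggcctgcagGCCTGTCGAGGGGCA
Srpk3 acceptor: ccccaggaggtcttgCAGATTGGCAAGCTG
In Qk, an RNA-binding splicing regulator, the member with this acceptor left out the exon's first 24 bases, ending in AG, in 141 and 133 counts, 42.3% and 41.7% of the gene. In Sdhb, of respiratory complex II, 6 bases were left out in 28 and 46 counts. In Srpk3, a kinase of splicing factors, the exon was 3 bases longer, in 65 and 92 counts.

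Cdkn1c, an imprinted inhibitor of the cell cycle, held 22 members with 2389 and 2252 counts. Its highest was a new combination with 913 and 815 counts (24.2% and 22.0% of the gene) whose coding part was 12 codons longer than the closest annotated form. An acceptor 3 bases further in, shown above, was used by 8 of its members with 760 and 751 counts in sum, 20.1% and 20.2% of the gene, and the highest of these chains had 317 and 355 counts and 334 and 288. Srl (sarcalumenin, a calcium-binding protein of the sarcoplasmic reticulum) had a new combination with 1879 and 1558 counts, 73.7% and 77.3% of the gene, with 1 codon more. Acta1, skeletal actin, had 13 members, but its highest had 557 and 531 counts, which was 1.14% and 0.84% of the gene.

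Several enzymes and regulators were among the new combinations. Aldoa, an aldolase of glycolysis, had 2498 and 2317 counts on a chain with the coding part of a Known model, 46.5% and 39.4% of the gene. Eno1, an enolase, had 870 and 707 counts, 83.7% and 75.2%. Phb2, a prohibitin of the inner mitochondrial membrane, had 209 and 241 counts, 98.1% and 96.8%. Oaz1 and Oaz2, the ornithine decarboxylase antizymes, are translated with a programmed frameshift, and their Known models carry a short gap there. Their members, with 1283 and 1852 counts and 492 and 440, equal a Known chain once such gaps are closed, so their other stop codon in a plain reading is not a change of structure.

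Chains with a new first exon, alone or with another change, were led by Myh4, the fast IIB myosin heavy chain. Its chain joined a 326-base first exon at chromosome 11, 67237508 to 67237833 to the gene with 746 counts in replicate 1 and 180 in replicate 2. Its share of the gene was 51.3% (48.7 to 53.9%) and 47.1% (42.0 to 52.3%), intervals that overlap, while the gene itself had 1455 and 382 counts. With ISM models in the denominator the share was 33.1% and 23.5%. Sbk1, a kinase, had 97 and 45 counts on a new first exon, Map2k1, a MAP kinase kinase, 52 and 61, and Exoc6, of the exocyst, 56 and 38. The 7 chains joined to a site of another gene included Hgs with 43 and 41 counts and a pair in Myh8, the perinatal myosin, with 35 and 22 and with 27 and 10, whose shares of 1.81% and 2.41% and of 1.40% and 1.096% were 0.523% and 0.526% and 0.403% and 0.239% with ISM models in the denominator. Among chains typed as retained introns, the highest were in Acta1 (58 and 24 counts), Srpk3 (51 and 20) and Col3a1 (36 and 35). Counted over all members that hold it, the Srpk3 intron had 85 and 33 counts in 3 members. The single new last exon was in Chd1, a chromatin remodeller, with 11 and 10 counts.

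In 175 of 5167 genes with at least 20 spliced counts in each library (3.39%), a member was the highest chain in both. New combinations led 84 of these, shifted donors 29, compound changes 21, skips 15 and shifted acceptors 13. A small difference made up 45 of the 175 and a tiled combination 71. Capn2, a calpain protease, had 203 and 184 counts, 97.1% and 97.4% of the gene. Tnni1, slow troponin I, had 163 and 276 counts on the chain without the 4-base exon, 95.9% and 95.2%. Cct6a, a chaperonin subunit, had 253 and 274, 91.3% and 87.8%, and Col6a1, a collagen VI chain, had 585 and 336, 91.8% and 82.6%. The Col6a1 shares differed between the libraries (adjusted Fisher exact p = 0.00139) and were 68.8% and 54.5% with ISM models in the denominator. Over the 1087 members in genes with at least 50 counts in each library, the median share of the gene was 7.23%, and 48 members took at least 50%.

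**Figure D4:**
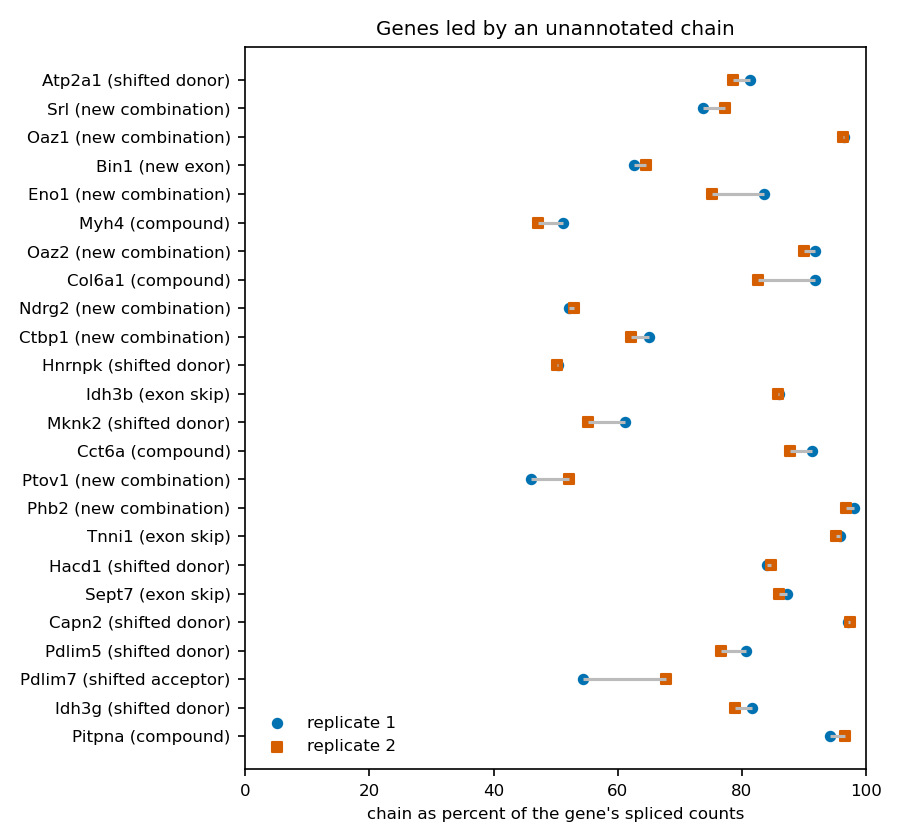
Share of the gene's spliced counts (x axis, percent) on the leading unannotated chain in replicate 1 (circles) and replicate 2 (squares) for the 24 such genes with the highest CPM and at least 50 counts in each library, with the type of the chain in brackets. Oaz1 is at 96.5% and 96.4%, while Pdlim7 is at 54.4% and 67.8%.

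The coding part of a chain was read from the annotated start codon of the closest coding model. It could be read to a stop in 1206 members. In 475 (39.4%) it equalled that of a Known model, and in 396 (32.8%) it changed in frame and kept the annotated stop. In 335 (27.8%) it met another stop, 205 of which lay over 50 bases before the last junction. Without the chains of small difference, 267 of 1039 readable members (25.7%) met another stop, 151 of them over 50 bases before the last junction. The Oaz1 and Oaz2 members above and the Hnrnpk member below met another stop and are chains of small difference. Among the 109 readable skips, 52 were in frame and 45 met another stop. Of 18 readable retained introns, 13 met another stop. In Hnrnpk, an RNA-binding protein with 326 and 399 counts on its highest member (50.4% and 50.3%), the plain reading was 96 codons shorter. For 193 members, among them the Atp2a1, Bin1 and Mybpc1 chains named above, bases in no annotated transcript kept the frame from being read.

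**Figure D5:**
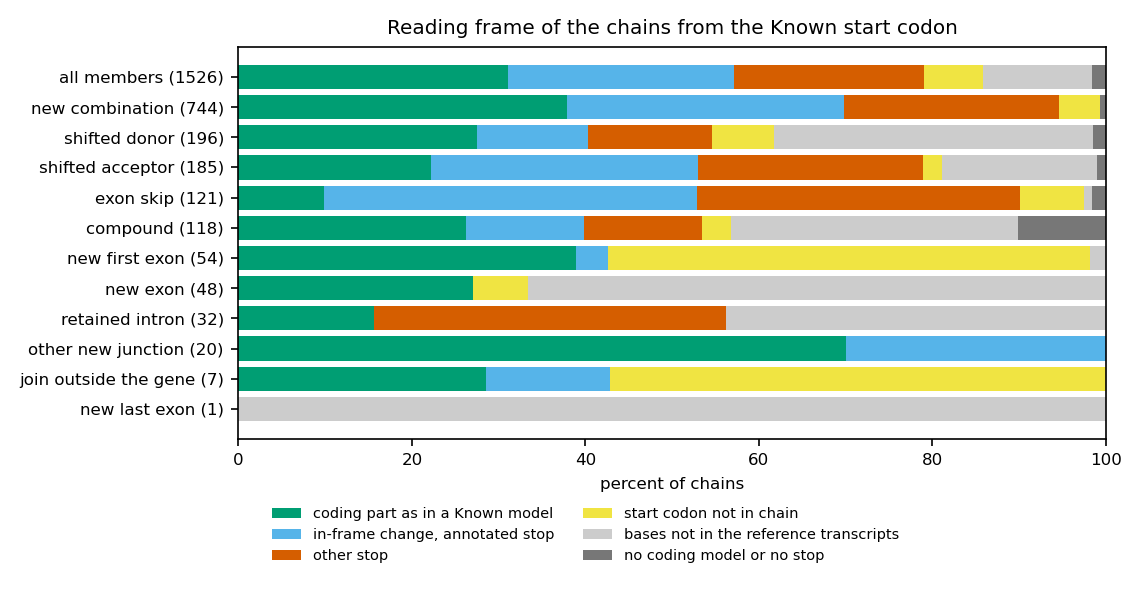
Percent of chains (x axis) of each type (y axis, number of chains in brackets) by what is read from the annotated start codon. The coding part equalled a Known model in 475 of 1526 chains, and another stop was met in 335.

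Genes with a member were counted by function. Among all 5167 genes tested, 894 (17.3%) had at least 1, rising from 8.54% in the third of genes with the fewest counts to 27.3% in the third with the most. Of 53 sarcomere and Z-disc genes tested, 35 had a member, as did 13 of 27 excitation-contraction coupling genes, 14 of 26 glycolysis genes, 17 of 39 SR and hnRNP splicing factors, 11 of 28 matrix genes and 6 of 8 imprinted growth genes. Of 59 nuclear genes of oxidative phosphorylation, 7 did, with Ndufs1 the highest (62 and 54 counts). Of 33 translation factors, 7 did, with Eef1d the highest (46 and 53). Among 27 adhesion and membrane skeleton genes, 10 did, with the integrin Itgb1 the highest (141 and 109). None of 8 neuromuscular synapse genes did. Level and number of exons were not matched between lists, and the median member had 11 introns against 7 in Known chains.

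The libraries were compared chain by chain, as the chain against the rest of its gene, with a two-sided Fisher's exact test and Benjamini-Hochberg adjustment over 8349 chains. This compares 2 libraries and not conditions. Of all chains tested, 83 (0.994%) differed at an adjusted p under 0.05, with 0.527% higher in replicate 2 and 0.467% higher in replicate 1. Of 1405 members tested, 19 differed (1.35%), 8 with a higher share in replicate 2 and 11 in replicate 1. Of 6201 Known chains under the same minimum, 32 did (0.516%). Counts per chain were not matched between these sets, and the rule used the members' counts, so the shares are a description.

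Pmp22, Atp2a1, Aldoa and Fhl1 were among the members with the smallest adjusted p. Pmp22, a myelin protein, had a junction between Known sites in 160 of the 645 spliced counts of replicate 1 and 518 of the 1384 of replicate 2, 24.8% and 37.4% (adjusted Fisher exact p = 4.11e-06), and the Schwann cell markers were also higher in replicate 2, at 1449 and 3479 CPM in sum. Their part in the result was not tested, and in bulk tissue fewer cells of a type and less RNA per cell cannot be told apart. The highest Atp2a1 chain fell from 81.3% to 78.6% (adjusted Fisher exact p = 3.76e-14) and the second rose from 15.1% to 17.9% (adjusted Fisher exact p = 1.17e-17), differences of under 3 percentage points. Aldoa went from 46.5% to 39.4% (adjusted Fisher exact p = 2.37e-11) and Fhl1, a LIM-domain protein of muscle, from 22.7% to 14.5% on 216 and 149 counts (adjusted Fisher exact p = 0.000587). In Acta1, the highest chain went from 1.14% to 0.838% (adjusted Fisher exact p = 0.000101) and the retained intron from 0.118% to 0.0379% (adjusted Fisher exact p = 0.00019). A new combination of Mybpc1 with 44 and 62 counts went from 1.20% to 2.74% (adjusted Fisher exact p = 0.00409).

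A pair of called Tnni2 chains rested on class labels. Tnni2 encodes fast troponin I, and its main chain was labelled NIC with 1005 counts in replicate 1 and ISM with 895 in replicate 2, so the gene's denominators were 1093 and 76. The shifted-donor member, with 41 and 33 counts, therefore had 3.75% and 43.4%, but 2.83% and 2.44% with ISM models in the denominator (adjusted Fisher exact p = 1). The other, a skip with 19 and 9 counts, had 1.74% and 11.8%, but 1.31% and 0.664% with ISM models (adjusted Fisher exact p = 0.765). In all, 60 chains past the minimum were NIC or NNC in 1 library and ISM in the other, and they are outside the rule.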

How the data were processed

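The deposited tables give raw counts of reads per transcript model in TALON format, per the file headers, and the deposited exon coordinates are on mm10 with annotated models from GENCODE M21, as the accompanying readme says. Aligner and tool versions: not given in the sources used here. Members and gene lists were chosen with earlier results of these data known. Chains were typed from coordinates, not class labels, and their coding part was read from GENCODE M21 transcripts, in which 1116 of 1117 reference models ended at the annotated stop. No genome was used, so intron ends were read only inside annotated exons. Each chain was given the gene of the library with more counts. Fisher's exact test used genes with at least 20 counts in each library and chains with at least 10 in sum, in scipy. TMM (edgeR) and DESeq2 size factors were alternatives for CPM. Typing was tried on made-up chains of a single kind each. New combinations, compound chains, other new junctions and joins to another gene were not among them. The test was tried on simulated counts that hold counting error only. The text names, by rule, the 10 highest chains, the 3 highest of each type, the 10 highest shares, the 8 highest new exons, the highest of each list and the 5 strongest library differences in each direction. Sdhb, Cttn, Dctn1, Trim55, Pxn, Usp25, Lrrfip2, Idh3g and Hacd1 were added after their values were seen.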

Additional observations from a re-analysis of the deposited data

How the results depend on the processing

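No paired analysis was possible because there is 1 group. With a minimum of 3 counts there were 2775 chains from 1706 genes, and with 10 there were 717 from 511. With the minimum applied to 1 library alone there were 2252 to 2407 chains from 1429 to 1478 genes, and members led 234 to 255 genes. The 1526 chains kept by both libraries held 7.47 to 10.3% of the spliced counts of a single library. The share of spliced counts was 4.997% without Atp2a1 and 3.90% without the chains of small difference (both chosen after seeing the data), against 8.89%. Typed only against Known models with a count, new combinations fell to 211, while compound chains were 307, new first exons 115, new exons 162 and new last exons 5. For 79 members the gene then has no such model. At a minimum of 10 counts there were 343 new combinations, 101 shifted donors, 87 shifted acceptors, 48 skips, 66 compound chains, 23 new first exons, 20 new exons, 11 retained introns and 11 other junctions. Genes led by a member were 93 at 50 counts per gene. Of the 19 chains that differed between libraries, 5 also differed by at least 10 percentage points, 16 remained called with ISM in the denominator and 14 remained when a chain's class in either library counted. The levels of the 54 named chains moved by under 1.5 times with TMM or DESeq2 size factors. The percent of GT-AG introns was not run, since no genome was used. Of the named chains, those of Myh4, Myh8, Col6a1 and Tnni2 had a share that moved by over 1.5 times with ISM in the denominator (chosen after seeing the data).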
